A study of Mus musculus with 12 samples.

Results

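The floor plate genes described here are Shh, Foxa1, Foxa2, Ferd3l, Spon1, Nkx2-9 and Corin, 7 of the 45777 gene identifiers in the expression tables. They were chosen by name, as genes known to mark the floor plate or the ventral midline next to it. No measured value entered the rule, but earlier results of these data were known when it was set. Their NCBI gene identifiers were matched to symbols, and their TPM (the StringTie level, corrected for transcript length and library size) were read in all 12 libraries. The libraries came from ventral spinal cord of mouse embryos at E12.5, taken from the brachial level, which serves the forelimb, or the lumbar level, which serves the hindlimb. At each level 3 libraries were Isl2 +/- (Het) and 3 were Isl2 -/- (KO). Isl2 encodes a LIM homeodomain transcription factor of postmitotic motor neurons. Its null allele, as the study describes it, has a neomycin cassette in place of 3 exons. The allele is carried in all cells, and the controls carry 1 copy of it. The tissue was trimmed around the Hb9::GFP reporter, which labels motor neurons under the Hb9 promoter, so the floor plate was sampled as a neighbour of the tissue aimed at. How much of it each piece kept is not given in the sources used here. No wild-type group was analysed here.

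The floor plate is a strip of glia-like cells at the ventral midline of the neural tube. It is induced by Sonic hedgehog from the underlying notochord and then secretes Sonic hedgehog itself. The resulting gradient sets the order of progenitor domains, with the p3 domain closest to the midline and the motor neuron progenitors just dorsal to it. The floor plate also guides commissural axons through netrin, slit and F-spondin proteins. The comparisons below ask whether genes of this midline tissue differed between the genotypes or between the levels.

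Aligned bases per library ran from 4.48 to 6.64 gigabases, lowest in brachial KO replicate 3, and between 22985 and 24194 genes lay above 0. Isl2 was 0.61 lower in brachial KO and 0.35 lower in lumbar KO libraries on the log2 scale (limma log2 differences of -0.61 and -0.35, unadjusted p = 0.0108 and 0.0287, adjusted p = 0.359 and 0.999). Its values did not overlap between the genotypes at either level. Transcripts of Xist and of Y-linked genes put 7 libraries as male, with 2 of 3 in brachial Het, brachial KO and lumbar KO and 1 of 3 in lumbar Het. In 3 of 6 brachial and lumbar pairs of one genotype and number the sexes differed. A shared number therefore did not always mark a shared embryo. The methods give 3 animals per genotype, but by sex the Het libraries of the 2 levels cannot all have come from the same 3 embryos. Libraries of the 2 levels may still share some embryos, and the comparison of levels treats them as separate. P-values below set a difference against the spread between these libraries, which limma moderates with the spread of all genes tested. Levels are TPM divided by a median-of-ratios size factor per library. Differences are on the log2(TPM + 0.1) scale, which understates changes of the lowest genes.

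The 7 genes lie on 4 chromosomes of the mm10 build. Shh is at chr5:28456840-28467101 and Corin at chr5:72299948-72504540, both on the minus strand. Foxa2 is at chr2:148042877-148046969 on the minus strand and Spon1 at chr7:113765998-114043375 on the plus strand. Ferd3l is at chr12:33928425-33929310 on the plus strand, Nkx2-9 at chr12:56611389-56613569 and Foxa1 at chr12:57540628-57548029, the last pair on the minus strand. Nkx2-9 and Foxa1 are separated by 927058 bases that hold 4 whole protein-coding genes. Annotated genes on the opposite strand overlap all members but Foxa2. Ttc6, a protein-coding gene that overlaps Foxa1, read 0.236 to 0.68 TPM, a range that lies within that of Foxa1 except at its lower end. The library kit was stranded, but whether the counting used strand is not given in the sources used here, so Foxa1 and Ttc6 cannot be told apart with certainty.

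The 250 bases before an annotated transcription start are shown for 3 members. Foxa1 and Foxa2 are close relatives that differed widely in level, and Ferd3l is a compact gene with a single RefSeq transcript. The sequences are from RefSeq on GRCm38.p6 and run 5′ to 3′ on the strand of the gene, with motif matches in capitals. For Foxa1 the window is chr12:57546112-57546361 (minus strand). It lies inside the annotated span of the gene, and its last 10 bases fall in an exon of a GENCODE transcript. For Foxa2 the window is chr2:148046970-148047219 (minus strand), before the outermost of its starts, and for Ferd3l it is chr12:33928175-33928424 (plus strand).
Foxa1: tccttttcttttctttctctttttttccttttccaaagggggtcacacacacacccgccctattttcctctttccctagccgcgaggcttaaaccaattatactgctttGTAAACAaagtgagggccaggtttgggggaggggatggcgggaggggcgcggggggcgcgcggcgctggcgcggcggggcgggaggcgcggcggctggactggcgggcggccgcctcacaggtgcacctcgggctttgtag
Foxa2: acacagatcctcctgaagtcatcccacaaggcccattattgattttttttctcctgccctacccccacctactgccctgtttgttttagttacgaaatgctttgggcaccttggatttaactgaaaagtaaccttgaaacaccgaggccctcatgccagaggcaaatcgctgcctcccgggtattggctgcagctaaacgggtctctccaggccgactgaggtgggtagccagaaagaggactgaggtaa
Ferd3l: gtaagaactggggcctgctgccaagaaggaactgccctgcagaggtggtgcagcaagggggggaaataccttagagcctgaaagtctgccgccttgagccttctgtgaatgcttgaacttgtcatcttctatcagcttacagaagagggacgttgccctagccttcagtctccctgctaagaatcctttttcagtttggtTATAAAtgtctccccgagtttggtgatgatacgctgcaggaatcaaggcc
The search covered both strands for TATAAA (the core of a TATA box), TGTTTNC (the core bound by forkhead factors, of which Foxa1 and Foxa2 are members) and TGGGNGGNC (a relaxed form of the site bound by the GLI factors of the Hedgehog pathway). The capitals in Foxa1 are a forkhead match on the opposite strand, at positions -141 to -135 from the start. The capitals in Ferd3l are a TATAAA match on the strand of the gene, at positions -50 to -45 from the start. The Foxa2 window shown held none of the 3 motifs. The RefSeq table gave windows for 5 of the 7 members, 7 windows in all, and not for Shh and Spon1. Among these windows the GLI-like letters stood before the innermost Foxa2 start, which also held TATAAA, and before Nkx2-9, and the Corin window held none of the 3. Of all 32851 promoter windows of this length, 12.4% held TATAAA, 17.8% held TGTTTNC and 5.84% held TGGGNGGNC, and whether any of these matches is bound was not tested.

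All 7 genes were detected, over a range of levels that reached from Spon1 to Nkx2-9. Mean levels over the 12 libraries, in TPM with SD, were 78.1 ± 10.1 for Spon1, 7.79 ± 1.81 for Shh, 6.45 ± 1.04 for Ferd3l, 4.76 ± 1.15 for Foxa2, 3.26 ± 0.635 for Corin, 0.479 ± 0.271 for Foxa1 and 0.118 ± 0.165 for Nkx2-9. Spon1 stood above Shh in 12 of 12 libraries, with a mean 10.0 times as high. Ferd3l stood above Foxa2 in 12 of 12 libraries and Corin above Foxa1 in 12 of 12. The order of Shh and Ferd3l was less steady, with Shh the higher in all 6 lumbar but in 3 of 6 brachial libraries, so these neighbours did not differ beyond their spread at the brachial level. Foxa2 was above Corin in 11 of 12 libraries and Foxa1 above Nkx2-9 in 11 of 12. Between the FoxA relatives the distance was wide, with Foxa2 above Foxa1 in 12 of 12 libraries and a mean 9.95 times as high.

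**Figure D1:**
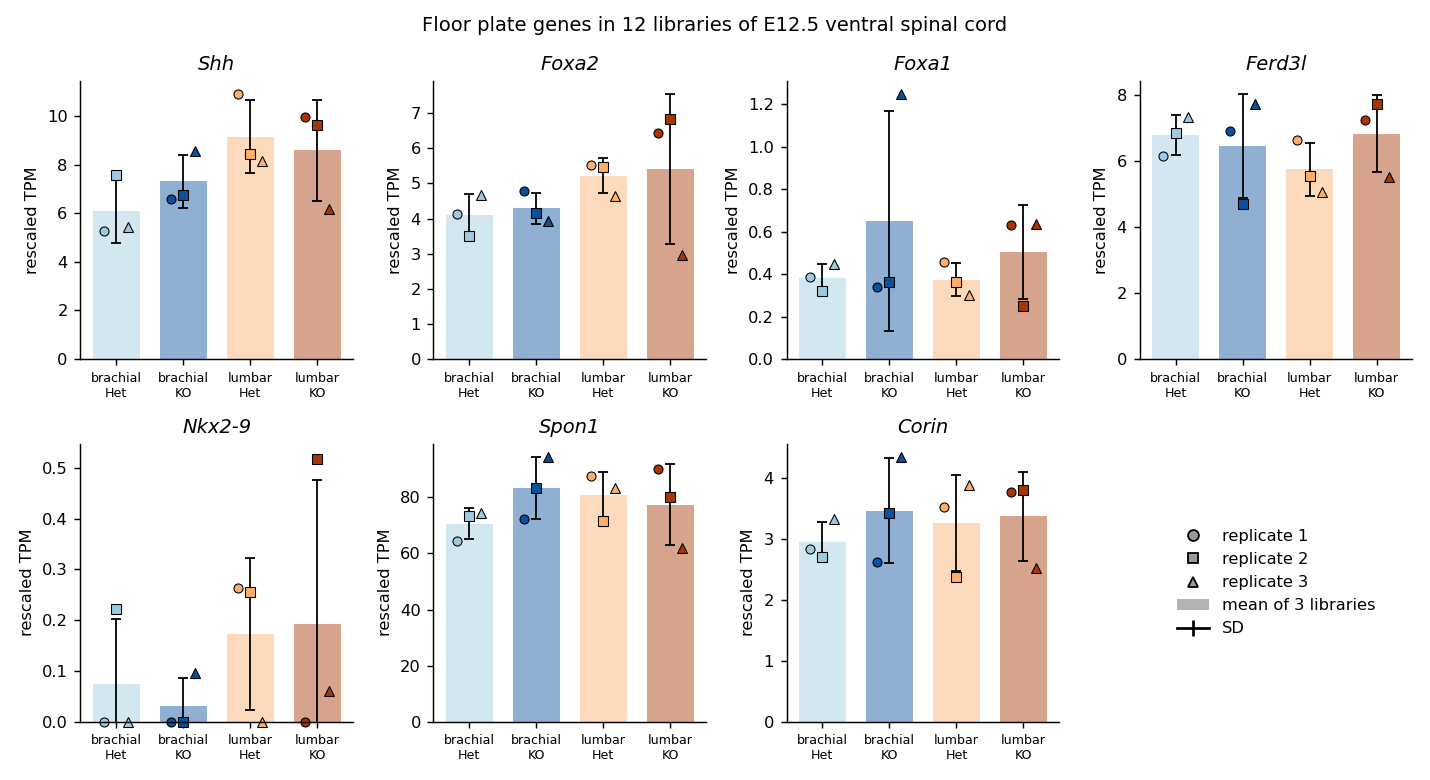
Level of each floor plate gene in rescaled TPM (vertical axis, from 0, a separate scale per gene) in the 4 groups; bars are means of 3 libraries, error bars are SD and symbols mark the replicate number. In all panels the KO and Het libraries of a level overlap, and lumbar KO replicate 3 is the lowest of its group for Shh (6.20), Foxa2 (2.97), Ferd3l (5.51), Spon1 (61.9) and Corin (2.53).

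Shh encodes the Sonic hedgehog ligand. In brachial Het libraries it read 5.26, 7.58 and 5.44 TPM, and in brachial KO libraries 6.61, 6.77 and 8.57 TPM. In lumbar Het libraries it read 10.9, 8.44 and 8.15 TPM, and in lumbar KO libraries 9.98, 9.63 and 6.20 TPM. The genotypes overlapped at both levels, since brachial Het replicate 2 lay above 2 of the 3 brachial KO libraries and lumbar KO replicate 3 lay below all 3 lumbar Het libraries. By limma the KO minus Het difference was 0.27 on the log2 scale (95% interval -0.14 to 0.68) at the brachial level and -0.11 (-0.58 to 0.36) at the lumbar level, with adjusted p = 0.463 and 0.999. Between the levels the lumbar libraries averaged 8.89 ± 1.66 TPM and the brachial ones 6.70 ± 1.26 TPM (SD, n = 6), and 3 lumbar libraries lay above all 6 brachial ones. The lumbar minus brachial difference, with genotype as a covariate, was 0.40 (0.08 to 0.72), a ratio of 1.32. Its unadjusted p was 0.0195 and its adjusted p over all genes 0.0828 (limma), so Shh did not pass the threshold of adjusted p under 0.05. The value turned on the libraries and the scaling. Without lumbar KO replicate 3 the difference was 0.52 (adjusted p = 0.0165), and without brachial KO replicate 3 it was 0.47 (adjusted p = 0.0453). It was 0.59 in Het libraries alone (adjusted p = 0.12), 0.21 in KO libraries alone (adjusted p = 0.581) and 0.26 with the TPM as deposited (adjusted p = 0.354, all by limma).

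Foxa2 encodes a forkhead factor needed for the floor plate to form and an activator of Shh. It read 4.14, 3.52 and 4.68 TPM in brachial Het, 4.78, 4.16 and 3.92 TPM in brachial KO, 5.54, 5.48 and 4.64 TPM in lumbar Het and 6.44, 6.84 and 2.97 TPM in lumbar KO libraries. The lumbar KO group thus held both the highest and the lowest value of the 12. The KO minus Het differences were 0.06 (-0.30 to 0.43) in brachial and -0.03 (-0.72 to 0.65) in lumbar cord (limma, adjusted p = 0.856 and 0.999). Without lumbar KO replicate 3 the lumbar difference became 0.34, with an unadjusted p of 0.0488 and an adjusted p of 0.9996 (limma), which still did not pass the threshold used within a level. Lumbar libraries averaged 5.32 ± 1.39 TPM against 4.20 ± 0.474 TPM in brachial ones (SD, n = 6), a difference of 0.29 (-0.09 to 0.68, adjusted p = 0.275 by limma). It was 0.47 (adjusted p = 0.0145) without lumbar KO replicate 3. The long non-coding gene 9030622O22Rik, 2364 bases from Foxa2 on the same strand, averaged 1.27 TPM in brachial and 1.94 TPM in lumbar libraries.

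Foxa1, the relative of Foxa2, lay near the lower limit of these tables. It read 0.385, 0.319 and 0.447 TPM in brachial Het, 0.341, 0.362 and 1.25 TPM in brachial KO, 0.458, 0.363 and 0.303 TPM in lumbar Het and 0.630, 0.248 and 0.636 TPM in lumbar KO libraries. Brachial KO replicate 3, the shallowest library, stood apart at 1.25 TPM. Through that library the gene passed the filter of a mean TPM of 0.5 at the brachial level, and it was under the filter in the other 3 comparisons. It passed there only in fits that left out a library or used KO libraries alone, and with no filter. The brachial difference of 0.44 had a 95% interval of -0.72 to 1.59 (limma, adjusted p = 0.672), that is, a ratio anywhere from 0.608 to 3.01.

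Ferd3l encodes a basic helix-loop-helix factor of the floor plate. It read 6.16, 6.84 and 7.34 TPM in brachial Het, 6.91, 4.69 and 7.73 TPM in brachial KO, 6.63, 5.55 and 5.04 TPM in lumbar Het and 7.24, 7.72 and 5.51 TPM in lumbar KO libraries. Its highest and its lowest value were both in brachial KO. The KO minus Het difference was -0.10 (-0.55 to 0.35) in brachial and 0.24 (-0.15 to 0.63) in lumbar cord (limma, adjusted p = 0.812 and 0.999). The lumbar minus brachial difference was -0.07 (-0.37 to 0.23), a difference within its spread.

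Nkx2-9 encodes a homeodomain factor of the most ventral neural tube. It was listed at 0 in 6 of 12 libraries, namely brachial Het replicates 1 and 3, brachial KO replicates 1 and 2, lumbar Het replicate 3 and lumbar KO replicate 1. The other values were 0.222 TPM in brachial Het, 0.0954 TPM in brachial KO, 0.264 and 0.256 TPM in lumbar Het and 0.517 and 0.0604 TPM in lumbar KO libraries. These levels did not pass the filter in any comparison. Fitted without a filter, the KO minus Het difference was -0.24 (-1.53 to 1.04) in brachial and -0.13 (-2.11 to 1.85) in lumbar cord, and the lumbar minus brachial difference was 0.72 (-0.40 to 1.85; limma, adjusted p = 0.859, 0.998 and 0.482). With so many values at 0, these intervals are wide and depend on the added 0.1.

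Spon1 encodes F-spondin, a secreted matrix protein that acts on commissural axons, and it was by far the most abundant member. It read 64.3, 73.3 and 74.4 TPM in brachial Het, 72.3, 83.4 and 94.4 TPM in brachial KO, 87.5, 71.5 and 83.4 TPM in lumbar Het and 90.2, 80.1 and 61.9 TPM in lumbar KO libraries. In the brachial cord 2 of the 3 KO libraries lay above all 3 Het libraries and the third lay within them. With the narrowest intervals of the 7, its KO minus Het difference was 0.23 (-0.02 to 0.49, unadjusted p = 0.0688, adjusted p = 0.371) in brachial and -0.07 (-0.40 to 0.25, adjusted p = 0.999) in lumbar cord by limma. The lumbar minus brachial difference was 0.04 (-0.19 to 0.26). The brachial difference was 0.41 with the TPM as deposited (unadjusted p = 0.0184, adjusted p = 0.277 by limma), which did not pass the size threshold.

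Corin encodes a membrane-bound serine protease that marks the midline. It read 2.83, 2.70 and 3.32 TPM in brachial Het, 2.62, 3.42 and 4.34 TPM in brachial KO, 3.52, 2.37 and 3.89 TPM in lumbar Het and 3.77, 3.80 and 2.53 TPM in lumbar KO libraries. The groups overlapped throughout. Its differences were 0.20 (-0.29 to 0.69) between the genotypes at the brachial level, 0.05 (-0.51 to 0.61) at the lumbar level and 0.04 (-0.31 to 0.39) between the levels (limma, adjusted p = 0.643, 0.999 and 0.894).

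As a group the floor plate genes did not differ past the threshold in any comparison. Within a level the size and p of the study's threshold for lower genes were used, here in both directions and with limma: a log2 difference beyond 0.5 with an unadjusted p under 0.05. At the brachial level 0 of 6 tested members passed it, where 3.1% of 16935 genes did, and 0 of 7 members had KO and Het libraries that did not overlap, where 20% of the tested genes did. At the lumbar level 0 of 5 tested members passed it, where 1.77% of 16511 genes did, and 0 of 7 did not overlap, where 9.93% of the tested genes did. Between the levels 0 of 5 passed adjusted p under 0.05, where 18.5% of 16736 genes did, with 1 member (Shh) and 5397 of all genes at an unadjusted p under 0.05. With 5 to 7 members, counts of 0 are too few to be read against these background shares. By adjusted p alone, limma called 1 gene between the brachial genotypes and 0 between the lumbar ones, with 2337 and 805 genes at an unadjusted p under 0.05.

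The differences between KO and Het had a positive sign for 4 of the 5 members other than Foxa1 and Nkx2-9 at the brachial level, with a median of 0.20 against -0.01 over all tested genes, and for 2 of the same 5 at the lumbar level, with a median of -0.03 against -0.01. Foxa1 was left out of this count because it entered the brachial fit through a KO library. Without brachial KO replicate 3 the brachial values were 0.15 for Shh, 0.14 for Spon1 and 0.03 for Corin. Without brachial Het replicate 2 that of Shh was 0.44, and without brachial KO replicate 1 those of Spon1 and Corin were 0.33 and 0.38. With the TPM as deposited, which moved the median of all genes by a like amount to 0.16, Shh was at 0.44, Spon1 at 0.41 and Corin at 0.37. None of these passed the threshold. The genotype effects at the 2 levels were also compared directly, as the lumbar effect minus the brachial one. No member passed adjusted p under 0.05, as was so for 0% of 16736 genes by limma (740 genes at an unadjusted p under 0.05). The values were -0.38 (-1.02 to 0.25) for Shh, -0.31 (-0.74 to 0.12) for Spon1, -0.15 for Corin, -0.10 for Foxa2 and 0.34 (-0.25 to 0.93) for Ferd3l. A difference of the genotype effect between the levels was thus not detectable for these genes. In bulk tissue such as this, fewer cells of a type and less RNA per cell cannot be told apart.

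In the lumbar groups single libraries differed from their group in all members at once. For each library the deviation from the mean of its own group was taken on the log2 scale for the 5 members that passed the filter over all 12 libraries. In lumbar KO replicate 3 all 5 lay below the group mean, by -0.75 for Foxa2, -0.43 for Shh, -0.38 for Corin, -0.30 for Spon1 and -0.29 for Ferd3l. In lumbar KO replicates 1 and 2, and in lumbar Het replicate 1, all 5 lay above it. Elsewhere 4 of 5 lay above it in brachial Het replicate 3 and brachial KO replicate 3, and 4 of 5 below it in brachial Het replicate 1 and lumbar Het replicate 2. With 3 libraries in a group the other 2 deviate upward on average where 1 is low, by construction. Other ventral lists were also low by their median in lumbar KO replicate 3. The median deviation was -0.46 for 7 motor neuron genes, -0.38 for 5 genes of p3 progenitors and V3 neurons and -0.27 for 10 other floor plate genes. It was -0.05 for 8 neural progenitor genes and -0.002 over all genes. Not every listed gene went along. Isl1 (52.0 TPM), Slc5a7 (12.4 TPM) and Prph (34.4 TPM) lay between lumbar KO replicates 1 and 2. Slc17a6, of the p3 and V3 list, was the highest of its group in replicate 3 (54.4 TPM). The depth of that library, 6.27 gigabases, was within the range of the others. The part of tissue composition in these deviations was not tested.

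**Figure D2:**
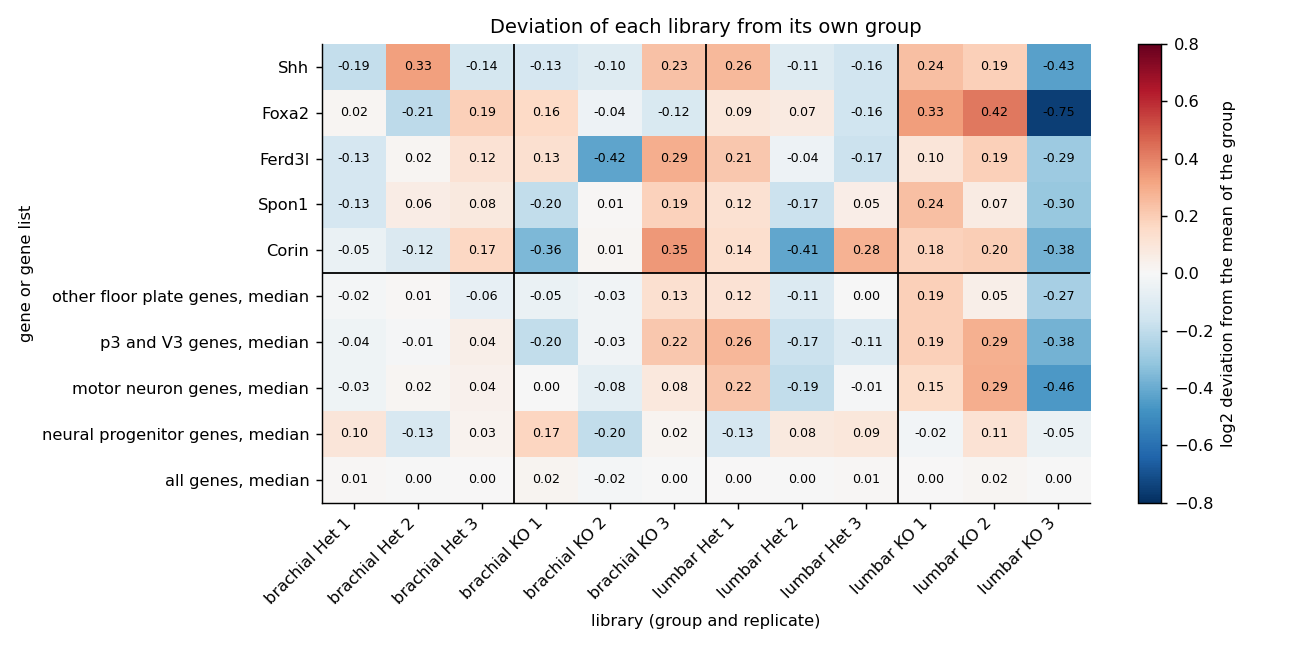
Deviation of each library (columns) from the mean of its own group on the log2 scale, for 5 floor plate genes (upper rows) and for the medians of 4 gene lists and of all genes (lower rows); red is above and blue below the group mean. Lumbar KO replicate 3 is low for all 5 members (-0.75 to -0.29) and for the median of the motor neuron genes (-0.46) but not for that of the neural progenitor genes (-0.05). Isl1, Slc5a7 and Prph of the motor neuron list lie there between replicates 1 and 2.

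Across the 12 libraries the members followed each other to different degrees. The following correlations are descriptions over libraries that share their depth and composition, and carry no test. Spon1 and Corin were the closest pair (Pearson r = 0.849, and 0.873 after subtracting group means), and Shh and Spon1 followed (0.712 and 0.792). Shh and Foxa2 had r = 0.607 and 0.477. Spon1 was the most like the mean of the other members (r = 0.779, and 0.849 after subtracting group means), at rank 91 and 106 among 14968 genes. Ferd3l was the least like it in the log2 values (0.344, rank 2519) and Foxa2 after subtracting group means (0.554, rank 1435). Many genes outside the list thus followed the remaining members more closely than each member did. Among 14967 other genes with a mean TPM of 1 or more, the 10 most like the mean of the 5 members were Plscr3 (0.944), Kcnh2 (0.938), Gpr108 (0.919), Mknk2 (0.913), Ntn1 (0.912), Islr2 (0.905), Slit3 (0.895), Nacad (0.891), Evx2 (0.885) and Metrnl (0.882). Ntn1 and Slit3, the genes of netrin-1 and of a slit protein, were the closest of the 10 other listed floor plate genes. Others of that list followed the members less, such as Vtn (-0.02, and 0.623 after subtracting group means), Wnt5a (0.014 and -0.267) and Lmx1b (-0.39 and -0.531). After group means were subtracted, the 10 most like them were Kif5c (0.955), Metrnl (0.955), Reep4 (0.954), Rab10 (0.953), Tpd52 (0.945), Chat (0.944), Rgl1 (0.943), Sulf1 (0.941), Kcnh2 (0.941) and Uba1 (0.939). Kcnh2 and Metrnl stood on both lists. Chat encodes choline acetyltransferase, the enzyme that makes the transmitter of motor neurons, and Sulf1 is one of the listed floor plate genes.

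Motor neurons, the cells the dissection aimed at, are also known to express Shh, and their part in its values was not tested. Markers of other tissues that could carry these genes were read too. Markers of the notochord, the other midline source of Shh and Foxa2, summed over 6 genes to 0.941 to 1.29 TPM in brachial Het, 0.697 to 0.798 in brachial KO, 0.341 to 0.703 in lumbar Het and 0.694 to 0.979 in lumbar KO, so the brachial sums did not overlap, with KO the lower. None of the 6 passed the filter, and Noto was at 0 in all 12 libraries. T (brachyury), also on that list, was above 0 in all 12, at 0.185 to 0.599 TPM. T and Krt18 were higher in lumbar KO and Krt8 and Krt18 lower in brachial KO libraries without overlap, all at levels under the filter. Of the tested genes, 9.93% did not overlap at the lumbar level and 20% at the brachial level. The part of the notochord genes in the members' values was not tested. Markers of endoderm, which also expresses FoxA genes, summed to 1.58 to 3.84 TPM over 6 genes, and the highest sums were those of brachial KO replicate 3 (3.84) and lumbar KO replicate 3 (3.37). By group the endoderm sums were 2.72 to 2.97 TPM in brachial Het, 2.34 to 3.84 in brachial KO, 1.58 to 1.74 in lumbar Het and 1.84 to 3.37 in lumbar KO. The lumbar sums did not overlap, nor did the values of Sox17 from that list (1.01 to 1.12 TPM in Het and 1.38 to 1.76 in KO). The others on the list, Epcam, Cdh1, Cldn6, Hnf4a and Afp, overlapped between the lumbar genotypes. Cldn6 was at 0 in 11 libraries, Hnf4a in 9 and Cdh1 in 7. Afp read 1.81 TPM in brachial KO replicate 3 and 0.765 TPM in lumbar KO replicate 3. The part of this list in the members' values was not tested. Blood genes summed to 1950 to 3512 TPM over 4 genes in brachial Het, 2776 to 5898 in brachial KO, 1936 to 3177 in lumbar Het and 2561 to 4250 in lumbar KO, highest in brachial KO replicate 3. All 4 had positive KO minus Het differences at both levels (medians 0.45 and 0.53). Of them Hba-x, an embryonic globin, passed the lumbar threshold (0.69, limma unadjusted p = 0.0393, adjusted p = 0.999), and the part of blood in the members' values was not tested.

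Other genes of the floor plate were read from a separate list. Of its 10 genes, all tested, 0 passed the threshold between the genotypes in the brachial cord and 0 in the lumbar cord. Over all genes 3.1% and 1.77% passed, so with 10 genes these counts of 0 are too few to be read against those shares. The median difference was 0.18 at the brachial level, with 9 of 10 positive against 8165 of all 16935 genes, and -0.04 at the lumbar level, with 3 of 10 positive. Among the most abundant, Ntn1, which encodes the midline attractant netrin-1, read 93.4 to 136 TPM over the 12 libraries. Sulf1, an enzyme that trims heparan sulphate, read 66.0 to 94.4 TPM, and Slit2, a midline repellent, 56.2 to 85.8 TPM. Slit1, named after its values were seen, read 44.7, 51.01 and 34.9 TPM in brachial Het and 54.3, 61.2 and 63.9 TPM in brachial KO libraries, which did not overlap. Its difference of 0.47 (0.15 to 0.80) missed the size threshold (limma, unadjusted p = 0.0105, adjusted p = 0.359). At the brachial level 20% of the tested genes had KO and Het libraries that did not overlap.

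Between the levels 1 of the 10 passed, where 18.5% of all genes did. It was Vtn, the gene of the matrix protein vitronectin. It read 68.9, 75.5 and 83.7 TPM in brachial Het, 74.7, 73.0 and 69.5 TPM in brachial KO, 60.7, 55.4 and 63.8 TPM in lumbar Het and 60.0, 54.7 and 47.7 TPM in lumbar KO libraries. All 6 lumbar libraries lay below all 6 brachial ones. The lumbar minus brachial difference was -0.38 (-0.53 to -0.24, limma adjusted p = 0.00246), and the call was kept in 22 of 24 alternatives, being lost with the libraries of 1 genotype alone.  The other 9 did not pass, and the median over the 10 was 0.01 with 5 of 10 positive.

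The Hedgehog pathway reads the Shh signal. Its receptor Ptch1 holds Smo in check until the ligand binds. Boc, Cdon and Gas1 are co-receptors, Hhip binds and removes the ligand, and Disp1, Hhat and the Scube proteins act in its processing and release. Gli1, Gli2 and Gli3 are the transcription factors at its end, with Sufu, Kif7 and Gpr161 as regulators. Of the 19 listed genes 17 were tested. The other Hedgehog ligands, Ihh and Dhh, were not, at 0 to 0.182 TPM and 0.0838 to 0.287 TPM, so Shh was the only ligand of the family above 0.5 TPM in these tables.

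At the brachial level 2 of 17 passed the threshold, both higher in KO. Over all genes 3.1% passed, 377 higher and 148 lower. Ptch1, which is also a target induced by the signal, read 20.4, 21.2 and 17.2 TPM in Het and 22.3, 26.0 and 37.4 TPM in KO libraries, a difference of 0.52 (0.08 to 0.95, limma unadjusted p = 0.0251, adjusted p = 0.359). Sufu read 2.87, 2.58 and 1.87 TPM in Het and 3.29, 3.41 and 5.63 TPM in KO libraries, a difference of 0.71 (0.11 to 1.31, unadjusted p = 0.0263, adjusted p = 0.359 by limma). Both were highest in brachial KO replicate 3, and both calls were lost without that library and also without brachial Het replicate 3, where both were lowest. The Ptch1 call was also lost with a pseudocount of 1 and the Sufu call with the replicate block. Gli1, the most direct transcriptional target of the pathway, read 1.08, 1.26 and 1.14 TPM in brachial Het and 1.27, 1.16 and 1.02 TPM in brachial KO libraries and did not pass. The median over the 17 was 0.33, and 0.15 without brachial KO replicate 3, when 0 passed. Of 5 genes of p3 progenitors and V3 neurons, 4 had a positive and 1 a negative difference at this level (median 0.31). Nkx6-1 alone of them passed, as higher (0.64, limma unadjusted p = 0.0212, adjusted p = 0.359). Its brachial values too were highest in KO replicate 3 (5.85 TPM), and the call was lost without that library. The part of these genes in the Hedgehog values was not tested.

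At the lumbar level 1 of 17 passed, where 1.77% of all genes did. Gli3, mainly a repressor and highest in dorsal neural tube, read 2.23, 3.89 and 2.43 TPM in Het and 4.49, 3.27 and 6.91 TPM in KO libraries, a difference of 0.74 (0.03 to 1.44, limma unadjusted p = 0.0426, adjusted p = 0.999). Its highest value was in lumbar KO replicate 3, the library in which all 5 floor plate members were low, and the call was lost without it and in 10 of 18 alternatives in all. Boc at 25.8 TPM, Gas1 at 20.3 TPM and Gli2 at 2.19 TPM were likewise highest in that library.

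Between the levels 4 of 17 passed adjusted p under 0.05, all higher at the lumbar level. Of all genes 18.5% passed, 8.88% as higher. Scube3, a secreted protein that helps release the ligand, read 12.7 to 18.6 TPM in brachial and 17.3 to 24.1 TPM in lumbar libraries, a difference of 0.54 (0.32 to 0.76, limma adjusted p = 0.00387). Hhip read 1.66 to 2.77 TPM and 2.45 to 3.27 TPM, a difference of 0.51 (0.22 to 0.79, adjusted p = 0.0185 by limma). Smo, the signal transducer, read 20.6 to 23.7 TPM and 23.3 to 33.1 TPM, a difference of 0.30 (0.15 to 0.46, limma adjusted p = 0.0126). Boc read 10.3 to 15.4 TPM and 12.7 to 25.8 TPM, a difference of 0.43 (0.13 to 0.74, limma adjusted p = 0.0499), which was kept in only 7 of 24 alternatives. The other 3 calls were kept with each of the 12 libraries left out in turn, but those of Hhip and Smo were lost with the libraries of either genotype alone and that of Scube3 with KO libraries alone. With the TPM as deposited, without rescaling, the lumbar minus brachial median over all genes moved from 0.01 to -0.13, all 4 genes stayed higher at the lumbar level and 0 of 17 passed. The median over the 17 was 0.30, and 0.16 with the TPM as deposited. Genes of neural progenitors moved with them, with 4 of 8 passing as higher at the lumbar level (Hes5, Nes, Sox2 and Vim), 1 as lower (Fabp7) and a median of 0.32. Of 5 genes of p3 progenitors and V3 neurons 2 passed as higher (Sim1 and Nkx6-1), with a median of 0.01. Of 3 motor neuron progenitor genes 2 passed as lower (Olig1 and Olig2), as did 2 of 7 motor neuron genes (Prph and Slc5a7). The part of these lists in the Hedgehog values was not tested.

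**Figure D3:**
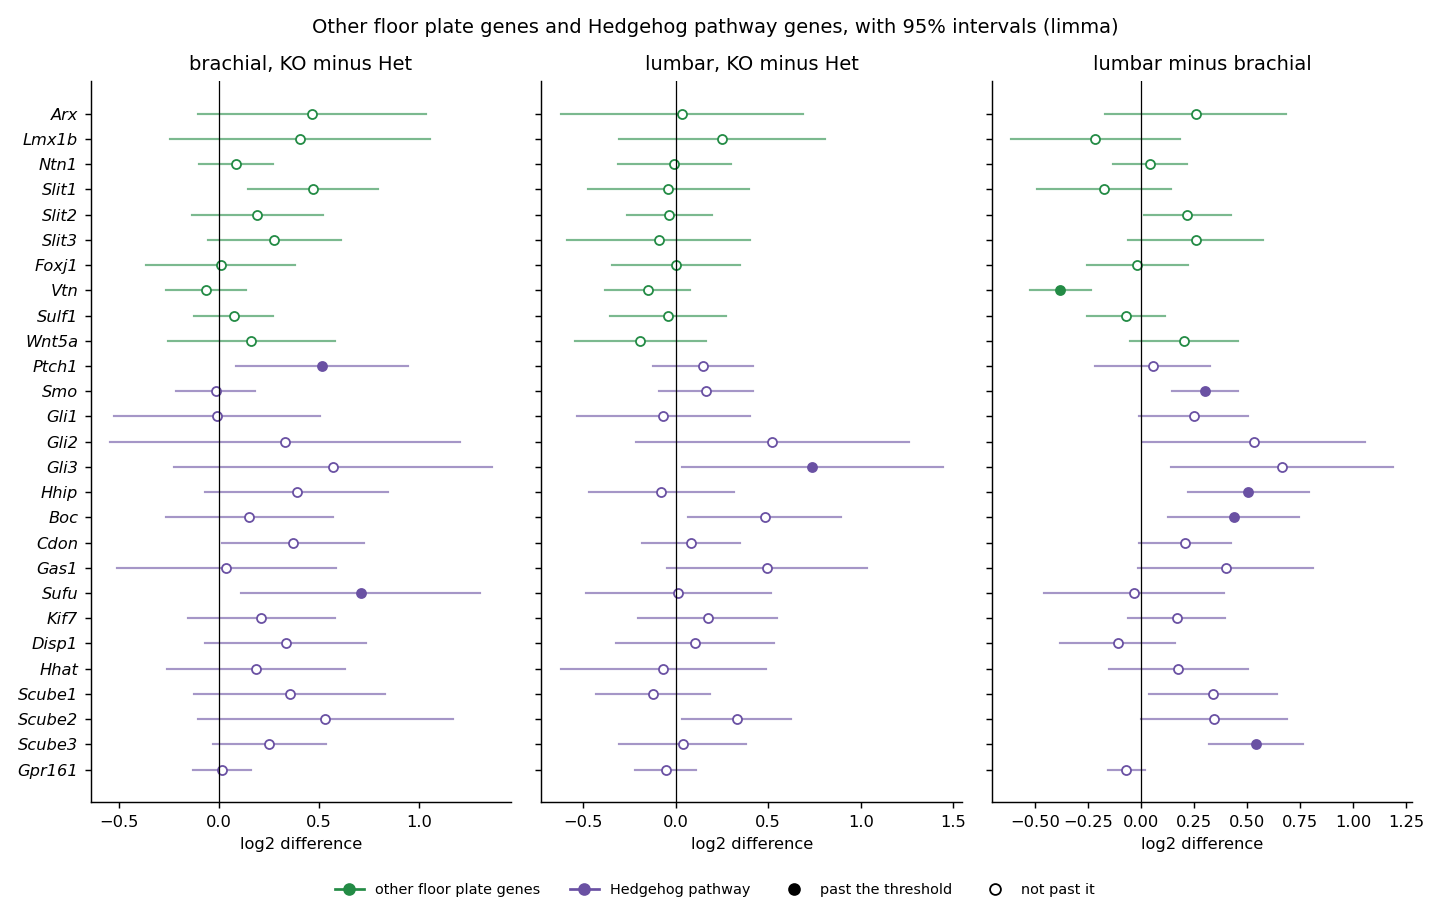
Log2 difference (horizontal axis, limma) with its 95% interval for 10 other floor plate genes (green) and 17 Hedgehog pathway genes (purple) in 3 comparisons; filled points passed the threshold of their comparison. Filled points are Ptch1 (0.52) and Sufu (0.71) in the brachial panel, Gli3 (0.74) in the lumbar panel and Vtn (-0.38), Smo, Hhip, Boc and Scube3 between the levels.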

How the data were processed

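Total RNA of E12.5 ventral brachial and lumbar spinal cord was made into TruSeq stranded, ribosome-depleted libraries. Per the labels the tools were FastQC 0.11.7, Trimmomatic 0.38, HISAT2 2.1.0, Bowtie2 2.3.4.1 and StringTie 2.1.3b, with the mm10 build. The authors deposited 1 StringTie gene table per library with TPM, FPKM and coverage values, and no read counts, so count tests could not be used. The deposited TPM were scaled by the authors to a fixed sum per library, the deposited FPKM were not tested, and the deposited coverage served as an alternative to TPM and for the aligned bases.

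Symbols came from RefSeq GRCm38.p6, which matched 45679 of 45777 identifiers, 96.2% with the same start and end. TPM were rescaled by median-of-ratios size factors over 19305 genes above 0 in all 12 libraries, logged after adding 0.1, filtered at a mean TPM of 0.5 over the libraries of the fit, and tested with limma 3.58.1 (R 4.3.3) with a mean trend, after tests on simulated data. Adjusted p is Benjamini-Hochberg over all genes tested. Tables and figures used Python 3.11.15, pandas 2.3.3 and matplotlib 3.10.9. Genotypes were compared within a level, levels with genotype as a covariate, and the genotype effects of the levels by an interaction term.

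The members and gene lists were chosen with earlier results of these data known. Named were all members, up to 4 genes per list (those past a threshold by smallest p, then the most abundant), the 10 genes most like the members, genes within 10 kb and Isl2. Gli1, Gli2, Gas1, Ihh, Dhh, Slit1 and the markers Noto, T, Krt8, Krt18, Sox17 and Hba-x, the neural progenitor genes, and Vtn, Wnt5a and Lmx1b in the likeness, were named after their values were seen. So were the other endoderm genes, Isl1, Slc5a7, Prph, Slc17a6, Nkx6-1, Sim1, Olig1 and Olig2. The alternatives were other scalings, pseudocounts, filters and variance models, coverage, a replicate block, all libraries in one fit, 1 genotype alone and each library left out. Size factors within a level and sex as a term were added after seeing the data. A gene first listed with the Hedgehog pathway is not reported here.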

Additional observations from a re-analysis of the deposited data

How the results depend on the processing

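The count of floor plate genes past the threshold stayed at 0 in all 18 alternatives at the brachial level, all 18 at the lumbar level and all 22 for the difference of the genotype effects. Between the levels it was 0 in 22 of 24 alternatives and ran from 0 to 2 with each library left out. It was 1 (Shh) without brachial KO replicate 3 and 2 (Shh and Foxa2) without lumbar KO replicate 3, where 19% and 14.8% of all genes passed. Of 425 single-gene values under alternatives, 393 kept their direction and side of the threshold, 29 changed sign without being called and 3 passed. With each library left out, the brachial difference ran from -0.042 to 0.16 for Foxa2 and from -0.24 to 0.11 for Ferd3l. The lumbar difference ran from -0.23 to 0.11 for Shh, -0.24 to 0.34 for Foxa2, -0.19 to 0.078 for Spon1 and -0.16 to 0.24 for Corin. The lumbar minus brachial difference ran from -0.0089 to 0.12 for Spon1 and -0.032 to 0.13 for Corin, and the difference of the genotype effects from -0.31 to 0.28 for Foxa2 and -0.35 to 0.041 for Corin. With the TPM as deposited, where the brachial median over all genes moved from -0.01 to 0.16 and the lumbar minus brachial one from 0.01 to -0.13, the sign turned for Ferd3l at the brachial level (0.074) and between the levels for Spon1 (-0.10) and Corin (-0.10). With them 7 of 17 Hedgehog pathway genes and 2 of 10 other floor plate genes passed as higher in brachial KO, against 2 and 0 after rescaling, and 7.15% of all genes passed as higher, against 2.23%. Quantile normalization gave -0.0020 for Spon1 between the levels. KO libraries alone gave 0.10 for Ferd3l, -0.12 for Spon1 and -0.034 for Corin between the levels. Sex as a term, added after seeing the data, gave 0.054 for Foxa2 at the lumbar level and -0.030 for Corin between the levels. The cause of these changes was not tested. Replicate numbers did not pair the libraries: deviations of same-numbered Het and KO libraries correlated at 0.115, 0.306 and 0.062 at the brachial and 0.154, -0.298 and -0.112 at the lumbar level. Brachial and lumbar libraries of one number correlated at -0.051, 0.285 and 0.474 in Het and 0.022, -0.259 and 0.073 in KO. With the replicate block 0 members passed in all 4 comparisons, with Spon1 at the brachial level at 0.23 (unadjusted p = 0.0185 by limma).

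Reads per gene are not known, so no counting interval is given, and 3 libraries per group set the precision: the 95% intervals of the tested members within a level spanned from 0.51 (Spon1) to 2.305 (Foxa1) on the log2 scale.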
